A study of Homo sapiens with 10 samples.

Results

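Kuramochi cells that were still present after 9 days in 10 µM olaparib are described here against untreated cells of the same line. Kuramochi is an established line from human high-grade serous ovarian carcinoma, labelled epithelial and BRCA2-mutant, and olaparib inhibits PARP1 and PARP2, enzymes that mark DNA breaks with ADP-ribose chains. The compared cells were chosen by the condition written in each cell's deposited name: 563 cells labelled 10 µM persister (T10.P) and 4590 labelled control (C), of 13800 cells in all. All conditions shared the medium (RPMI-1640 with serum and insulin) and the drug-naive parental line. Naive cells kept for 9 days in 320 µM olaparib (1348 cells) and a resistant population adapted to 10 µM (3415 cells) were measured beside them, as was a population adapted to 320 µM (3884 cells). The first 2 are used where a difference from them was tested, and the third enters the shared fit and the plots by condition. The 10 µM persister cells numbered 300 in pool 1 and 263 in pool 2, and the control cells 2435 and 2155.

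Each pool mixed hashtagged cells of all conditions, so UMI counts (unique molecular identifiers, 1 per captured transcript) were summed per condition and pool, which gave n = 2 sums a side. The labels do not say whether pools hold separate cultures, and p-values therefore rest on a pool-to-pool spread that may be technical. Gene levels are CPM (counts scaled to a common library total, after trimmed-mean scaling), given for pool 1 and then pool 2. Counts come from the 3′ ends of transcripts, so levels are compared between conditions for 1 gene and not between genes. Log2 changes are persister minus control with a standard error (SE), and a gene was called where edgeR's quasi-likelihood test gave a Benjamini-Hochberg adjusted p under 0.05. A gene described as having risen or fallen passed that test.

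As background, cells sense misplaced nucleic acid with cGAS and STING for DNA, and with RIG-I and MDA5 for RNA. These sensors switch on interferon beta and the transcription factor NF-kB. Secreted interferon binds its receptor, activates JAK kinases and a complex that holds STAT2 and IRF9, and that complex binds the interferon-stimulated response element (ISRE) in the promoters of antiviral effector genes. NF-kB acts on other promoters, including those of chemokines, cytokines and its own inhibitors. Unrepaired DNA damage, including that left by PARP inhibition, is known to feed this sensing route in cancer cells.

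Promoters that hold the ISRE core are shown first, because the core, GAAA and again GAAA with any 2 bases between, can be read in them by eye. They were drawn from listed effectors and chemokines called higher with at least 20 CPM in persister cells, so their rise was set by the choice. Among these they are the 5 effectors of lowest p with a core wholly upstream of the start, and the only such chemokine. Each line gives the 250 bases upstream of the RefSeq start site on GRCh38.p14, 5′ to 3′ on the gene's own strand, with every match to the core on either strand in capitals (on the other strand the core reads TTTC, any 2 bases, TTTC). The genes are ISG15 (chr1:1013247-1013496, plus strand), IFI6 (chr1:27672193-27672442, minus strand), IFI27 (chr14:94110486-94110735, plus strand), IFIT3 (chr10:89327747-89327996, plus strand) and ISG20 (chr15:88638766-88639015, plus strand), and CXCL10 (chr4:76023498-76023747, minus strand).
ISG15: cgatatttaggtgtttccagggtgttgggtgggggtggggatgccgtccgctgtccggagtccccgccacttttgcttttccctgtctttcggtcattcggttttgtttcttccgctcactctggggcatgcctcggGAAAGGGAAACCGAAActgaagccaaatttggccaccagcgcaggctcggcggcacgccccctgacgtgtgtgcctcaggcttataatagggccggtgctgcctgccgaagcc
IFI6: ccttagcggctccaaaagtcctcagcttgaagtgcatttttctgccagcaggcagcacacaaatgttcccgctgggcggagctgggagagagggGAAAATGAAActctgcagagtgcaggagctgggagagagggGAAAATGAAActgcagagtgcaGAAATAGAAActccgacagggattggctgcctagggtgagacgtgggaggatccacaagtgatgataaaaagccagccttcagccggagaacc
IFI27: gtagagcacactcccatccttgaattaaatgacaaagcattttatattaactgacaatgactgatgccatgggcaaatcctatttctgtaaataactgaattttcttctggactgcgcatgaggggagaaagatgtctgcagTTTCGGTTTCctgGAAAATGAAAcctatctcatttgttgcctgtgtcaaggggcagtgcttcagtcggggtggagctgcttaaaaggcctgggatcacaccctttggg
IFIT3: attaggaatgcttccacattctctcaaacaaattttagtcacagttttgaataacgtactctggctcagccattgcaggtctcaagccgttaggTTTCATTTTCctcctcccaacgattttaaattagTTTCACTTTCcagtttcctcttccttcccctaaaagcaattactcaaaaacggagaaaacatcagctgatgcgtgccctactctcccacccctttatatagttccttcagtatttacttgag
ISG20: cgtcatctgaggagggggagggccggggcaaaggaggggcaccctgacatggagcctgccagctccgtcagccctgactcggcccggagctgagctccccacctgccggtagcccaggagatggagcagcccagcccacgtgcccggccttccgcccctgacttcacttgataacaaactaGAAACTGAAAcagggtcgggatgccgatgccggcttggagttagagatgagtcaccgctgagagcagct
CXCL10: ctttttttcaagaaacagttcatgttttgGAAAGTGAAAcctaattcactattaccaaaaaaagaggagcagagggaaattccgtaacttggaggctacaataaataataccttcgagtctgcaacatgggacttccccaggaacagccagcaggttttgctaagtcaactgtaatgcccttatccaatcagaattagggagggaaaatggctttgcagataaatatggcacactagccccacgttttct

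Those 6 genes rose by log2 changes of 4.74 to 7.81. Over all 10477 tested genes with a RefSeq window (250 bases before to 50 after the start), 294 held the core (2.81%). It stood in 41 of the 264 windows of genes that rose by at least 3 on the log2 scale (15.5%), in 82 of 2556 windows of genes that rose by less (3.21%), in 67 of 3124 windows of genes that fell (2.14%) and in 104 of 4533 windows of genes that were not called (2.29%). Among the lists described below, 25 of 36 interferon effectors with a window held it (69.4%) and 9 of 18 genes of MHC class I presentation (50%), against 3 of 12 nucleic acid sensors, 1 of 19 NF-kB genes, 1 of 11 chemokines (CXCL10), 0 of 7 acute phase genes and 0 of 35 mitosis genes. A match to these letters is a description of the window and not a bound site.

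Persister sums were smaller than control sums but held deeper cells. The sums held 22252107 and 23189583 UMIs in control and 3532281 and 3745019 in persister cells, and median UMIs per cell were 8539 and 10000 against 12099.5 and 15213. After each cell was thinned to 3000 UMIs the median number of genes was 1350 and 1355 against 1411 and 1413.5. Up to 3 UMIs in a sum, worth 0.774 and 0.721 CPM in persister and 0.133 and 0.127 CPM in control, were read as the floor. Of persister cells 10.7% and 12.9% had at least 90% of the highest UMI count of any cell in their pool, against 1.56% and 1.58% of control cells, and no doublet caller was run. Mitochondrial transcripts took 5.34% and 5.31% of persister UMIs against 8.33% and 8.08% in control. A deposited list of cells whose name ends in g1 held 75.3% and 76.0% of persister cells and 42.3% and 43.5% of control cells. In all, 13 barcode sequences occurred in both pools.

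Of 9 markers of an epithelial ovarian line all were detected, 6 rose and 2 fell. PAX8, a transcription factor of the Müllerian and serous lineage, stood at 173 and 159 CPM in control and 168 and 143 in persister cells, and KRT8, a simple epithelial keratin, at 1242 and 1285 against 917 and 744. EPCAM was low in both (4.25 and 5.01 against 4.64 and 6.49 CPM). Of 18 leukocyte markers, 7 had no UMI in either persister sum, among them CD3D, MS4A1, LYZ, CSF1R and TYROBP, and PTPRC had 1 and 2 UMIs. Summed leukocyte markers stood at 8.58 and 10.1 CPM in control and 75.6 and 59.1 in persister cells, of which LST1 (45.4 and 30.5 CPM), CD68 (11.1 and 13.7) and CD14 (11.3 and 6.97) made up most. These were the 3 of 7 tested leukocyte markers that rose. For 2 of the 7 the filter on low counts was passed only through persister sums, and of the other 5, 2 rose. CORO1A, another leukocyte marker, stood at 4.86 and 6.49 CPM against 4.90 and 5.53 and was not called. Fibroblast markers summed to 64.7 and 63.3 CPM against 54.9 and 51.9, and 4 of 12 had no UMI in either persister sum. Of the 8 tested, 2 rose and 2 fell, and 3 of the 8 were at the floor in control. Mesothelial markers summed to 134 and 129 CPM in control and 261 and 242 in persister cells, with 4 of 6 tested higher and 1 lower, among them HP and MSLN (88.3 and 83.2 against 128 and 135 CPM), and 4 of 10 had no UMI in either persister sum. For 2 of these 6 the filter was passed only through persister sums, and of the other 4, 3 rose and 1 fell. Endothelial markers summed to 60.4 and 59.6 against 89.7 and 88.9 CPM, with 2 of 6 tested higher (ENG and EGFL7) and 0 lower. The part of such cells in the results below was not tested.

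Of 13330 genes tested, 3638 were higher in 10 µM persister cells (27.3%) and 3909 were lower (29.3%). Scaling by library totals alone moved the median log2 change over all genes from -0.03 to 0.09 and gave 4346 higher and 3212 lower genes, so small changes depend on the scaling. The shares of 27.3% higher and 29.3% lower are the background for every list count against control below. The largest rises among genes of at least 50 CPM were almost all of immune genes. They were, by log2 change, S100A9 (9.59), HP (8.74), CXCL10 (7.81), RSAD2 (7.58), LCN2 (7.54), TRIM22 (7.49), CD74 (7.35), SAA1 (7.07), SAA2 (7.06), OAS2 (6.96), XAF1 (6.88), OASL (6.88), CXCL1 (6.83) and CHI3L1 (6.76). S100A8 belongs to them by its fitted change of 9.82, but with 2 and 1 UMIs in control that size, and its place in the order, is not defined. The largest falls were smaller: OSR2 (-3.53), a developmental transcription factor, GSTM4 (-3.19), a glutathione transferase, SOX5 (-3.11), CCDC146 (-2.999), NMU (-2.93), GUCY1B1 (-2.91), a subunit of the nitric oxide receptor, DYNC2H1 (-2.78), a ciliary motor, ABLIM1 (-2.67), PEG10 (-2.66), STON2 (-2.65), HIST1H4C (-2.55), a histone of S phase, ASPM (-2.53), TM7SF2 (-2.48), FOS (-2.45) and MYH10 (-2.40).

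**Figure D1:**
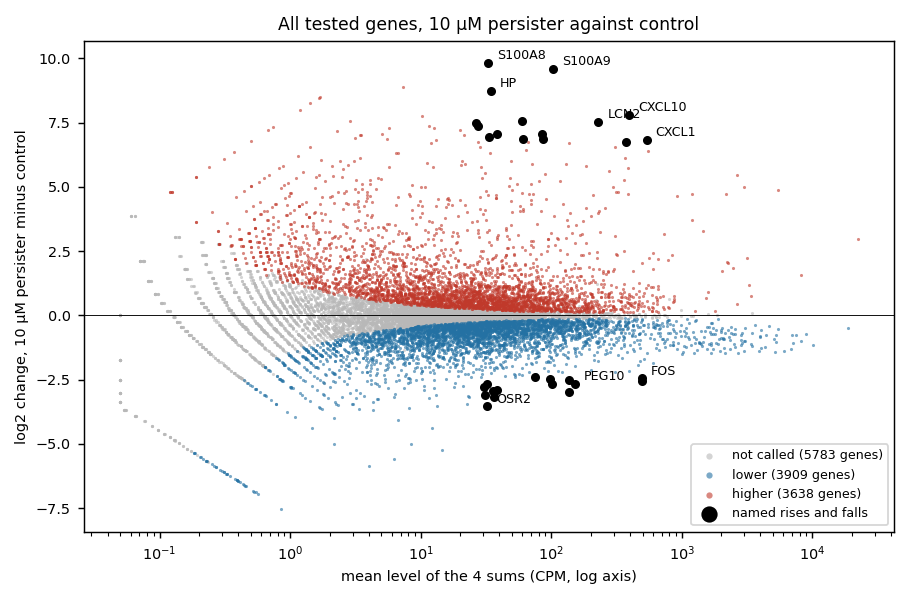
Log2 change (10 µM persister minus control, vertical axis) against mean level of the 4 sums (CPM, horizontal log axis) for the 13330 tested genes, with called genes in colour and the 30 named rises and falls as dark points and levels under 0.05 CPM drawn at 0.05. The named rises reach log2 changes of 6.76 to 9.59, with S100A8 (3 UMIs in control) drawn at its fitted 9.82, whereas the named falls lie between -3.53 and -2.40.

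A few of those 30 depended on single libraries or cells. S100A8, a subunit of the neutrophil protein calprotectin, stood at 0.0884 and 0.0424 CPM in control and 7.74 and 124 in persister cells. In pool 2, 1 cell held 264 of its 516 UMIs, and another cell held 851 of 1392 UMIs of its partner S100A9. The fitted log2 change of S100A8 was 6.71 without persister pool 2 and 10.73 without pool 1, that of S100A9 was 8.16 and 10.29, and the call of S100A8 was lost within the listed cells, with only the 4 compared sums and with sums thinned to equal totals. CHI3L1, a secreted chitinase-like protein, stood at 7.12 and 6.62 CPM against 1022 and 468 (log2 6.10 without persister pool 1). OSR2 reached -4.14 without persister pool 2 and STON2 -3.26 without persister pool 1. For all 30 genes both persister sums lay on 1 side of both control sums, as the naming rule required.

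The interferon route was followed from ligand to effector. Of 24 tested ligands, receptors, signalling proteins and factors, 15 rose and 0 fell, with a median log2 change of 0.82. For 1 of the 24 the filter on low counts was passed only through persister sums, and of the other 23, 14 rose (median 0.78). IFNB1, interferon beta, had 9 and 5 UMIs in the persister sums, which lay in 3 and 1 cells, and 2 and 1 UMIs in the much deeper control sums (2.32 and 1.20 CPM against 0.0884 and 0.0424). In pool 1, 7 of the 9 UMIs lay in 1 cell. IFNL1, interferon lambda 1, had 6 and 2 UMIs in persister sums and 0 and 1 in control sums and was too low to test, and IFNL2 and IFNL3 had none. IFNE, an interferon of the reproductive tract, stood at 1.28 and 1.36 CPM against 1.03 and 0.721 (log2 -0.60, adjusted p = 0.396).

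Receptors changed unevenly. IFNGR1, the ligand-binding chain for interferon gamma, rose from 36.2 and 32.7 CPM to 132 and 105 (log2 1.78 ± 0.09, adjusted p = 9.58e-15). IFNAR1, a chain of the receptor for alpha and beta interferons, was 34.0 and 26.9 against 33.0 and 32.0 CPM, and the groups overlapped (log2 0.09, adjusted p = 0.558). IFNLR1, the interferon lambda chain, stood at 0.486 and 0.679 against 1.29 and 1.20 CPM and was not called (adjusted p = 0.127). Downstream, the factors that carry the signal rose and the kinases less so. JAK1 stood at 229 and 228 CPM in control and 266 and 269 in persister cells (log2 0.23 ± 0.05, adjusted p = 0.000178), and JAK2 was not called.

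STAT2 rose from 6.90 and 5.98 to 26.8 and 33.9 CPM (log2 2.24). Its partner IRF9 stood at 6.19 and 6.45 against 22.2 and 11.3 CPM (log2 1.39 ± 0.25, adjusted p = 0.0002), with a wide gap between the persister pools. IRF7, the factor that amplifies interferon production, rose from 5.53 and 6.07 to 91.8 and 95.9 CPM (log2 4.01 ± 0.10). IRF1, a factor that acts early after interferon gamma, rose from 64.2 and 59.7 to 252 and 185 CPM, and IRF3, the factor activated by the sensors, from 34.0 and 38.3 to 67.3 and 64.2. The brake USP18, which blocks the receptor and removes ISG15 from proteins, rose from 6.28 and 6.91 to 129.98 and 138 CPM (log2 4.34 ± 0.11). SOCS1, an inhibitor of JAK kinases, stood at 1.19 and 1.65 against 6.45 and 12.01 CPM (log2 2.70 ± 0.50, adjusted p = 0.00145).

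Among 16 tested nucleic acid sensors and adaptors, 12 rose, 1 fell and 3 were not called, with a median log2 change of 1.82. The RNA sensors rose furthest: IFIH1 (MDA5) from 2.48 and 2.16 to 95.2 and 93.9 CPM (log2 5.35 ± 0.13) and DDX58 (RIG-I) from 16.8 and 16.1 to 272 and 249.9 CPM (log2 3.99 ± 0.08). TLR3, an endosomal receptor for double-stranded RNA, went from 2.65 and 2.76 to 10.1 and 10.6 CPM (log2 1.93 ± 0.24). On the DNA side, TMEM173 (STING) rose from 26.7 and 27.4 to 129 and 122 CPM (log2 2.21 ± 0.07), and IFI16, a nuclear DNA sensor, from 28.1 and 28.5 to 236 and 222 (log2 3.01). CGAS stood at 3.27 and 3.18 against 7.22 and 5.05 CPM (log2 0.92 ± 0.27, adjusted p = 0.0051), a call that was lost without persister pool 1 (log2 0.65, adjusted p = 0.157). MAVS, the adaptor through which the RNA sensors signal, was 16.6 and 17.0 against 13.9 and 14.4 CPM and was not called (adjusted p = 0.14). RNASEH2A, which removes ribonucleotides from DNA, fell from 1.15 and 1.70 to 0.258 and 0.481 CPM (adjusted p = 0.0267), although both persister values lie under the floor of 3 UMIs and the call was lost without control pool 2 or either persister pool (log2 -1.61, -1.55 and -2.44).

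All 45 listed interferon effectors were tested and all 45 rose, with a median log2 change of 4.30, from 1.69 for LGALS3BP to 7.58 for RSAD2. Of these, 4 had passed the filter on low counts only through persister sums, and the other 41 also all rose (median 4.25). Their summed level was 1732 in both control pools and 27241 and 25882 CPM in persister cells. ISG15, a ubiquitin-like protein attached to other proteins, stood at 176 and 184 CPM in control and at 5999.8 and 5596 in persister cells (log2 5.01 ± 0.05, adjusted p = 2.23e-34). IFI6, a mitochondrial survival protein, rose from 119 and 117 to 5249 and 5071 CPM (log2 5.45 ± 0.05, adjusted p = 1.84e-35). IFI27, a partner of IFI6 in its family, rose from 164 and 153 to 4289 and 4151 CPM (log2 4.74 ± 0.05, adjusted p = 2.45e-33). For each the persister pools lay close to each other and far above both control pools.

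The effector families rose at different sizes. The IFIT proteins bind foreign RNA ends: IFIT1 rose from 28.5 in both pools to 809 and 690.0 CPM (log2 4.72), IFIT2 from 18.04 and 18.2 to 615 and 545 (log2 4.998) and IFIT3 from 19.0 and 17.1 to 712 and 697 (log2 5.29). The OAS enzymes make the messenger that activates RNase L. OAS1 rose from 2.61 and 2.55 to 276 and 263 CPM (log2 6.71 ± 0.10), OAS3 from 1.19 and 1.70 to 129 and 122 (log2 6.43) and the related OASL from 0.929 and 1.10 to 141 and 100.9 (log2 6.88). MX1, a GTPase that traps viral particles, rose from 11.4 and 10.6 to 564 and 513 CPM (log2 5.61 ± 0.07).

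Other effectors rose less. BST2 (tetherin), a membrane protein that holds budding viruses, rose from 237 and 234 to 1099.9 and 1034 CPM (log2 2.18 ± 0.05). IFITM3, a membrane protein that blocks viral entry, rose from 282 and 295 to 1276 and 1267 CPM (log2 2.14 ± 0.04). IFITM2 rose from 124 and 129 to 419 and 423 (log2 1.73), and since IFITM2 and IFITM3 are near copies, reads could have been split between them. ADAR, an RNA editing enzyme that keeps self RNA from the sensors and is not among the 45, rose from 88.3 and 85.6 to 213 in both pools (log2 1.29 ± 0.06). EIF2AK2 (PKR), a kinase that stops translation on double-stranded RNA, rose from 98.2 and 89.2 to 322 and 329 (log2 1.80). Beside these rises the summed leukocyte markers stood as given above, and their part was not tested.

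**Figure D2:**
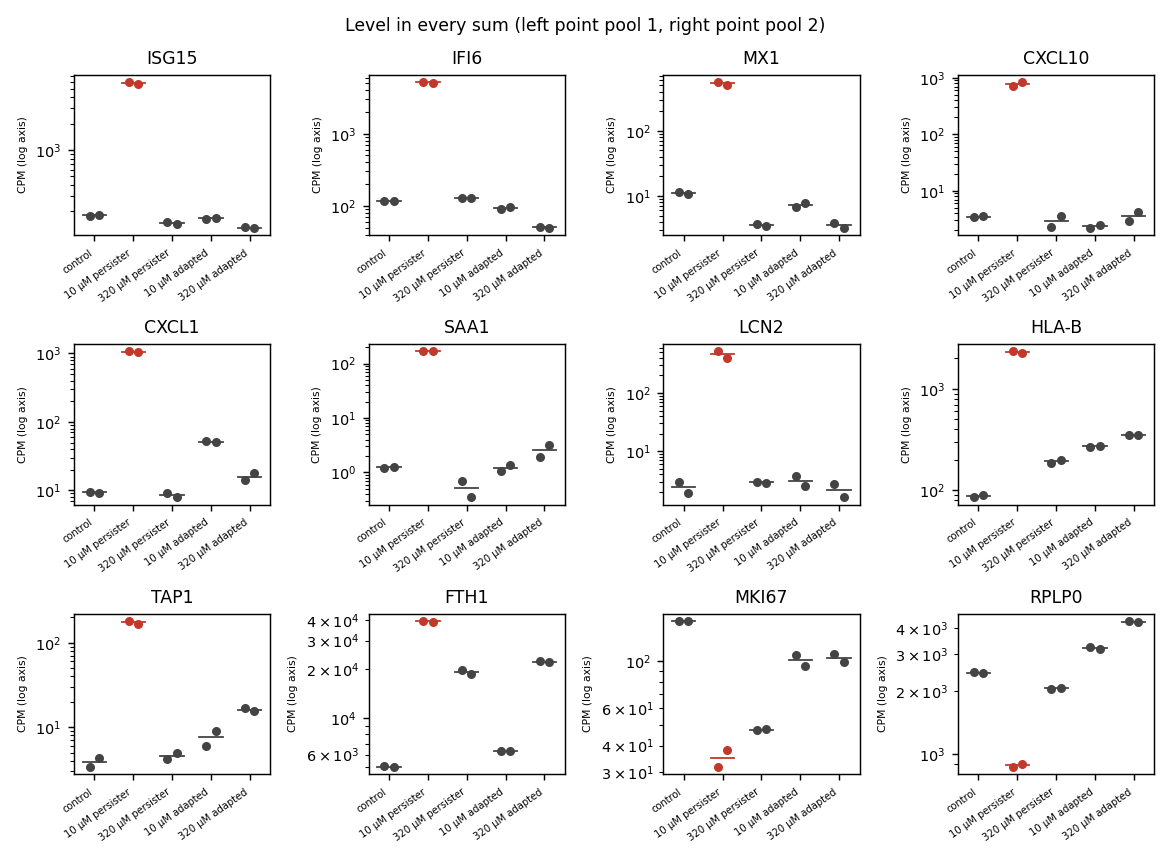
Level in every sum (CPM, log axis) of 12 genes in control, 10 µM and 320 µM persister and 10 µM and 320 µM adapted cells, with 1 point per pool and a line at the mean of the 2 pools. ISG15, IFI6, MX1, CXCL10, CXCL1, SAA1, LCN2, HLA-B and TAP1 are highest in both 10 µM persister sums, and RPLP0 is lowest there.

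Almost every 10 µM persister cell carried the interferon effectors. At 3000 UMIs per cell, the 45 effectors together took a median of 89 and 82.5 UMIs in persister cells against 5 in control cells of both pools. Of persister cells, 98.9% and 98.3% lay above the 95th percentile of control cells of their pool (12 UMIs), and 0 control cells reached the lower quartile of persister cells (65 and 62.25 UMIs). The median was 3 and 4 UMIs in 320 µM persister cells and 7 in 10 µM adapted cells of both pools. In the other drug conditions, 0 cells at 320 µM and 1 adapted cell in each pool (10 µM) reached the same quartile. Each pool mixed cells of all conditions, and the part of free RNA in these counts was not tested. ISG15 was found in 97.8% (95% Wilson interval 95.3 to 99.0) and 98.7% of persister cells against 39.9% and 41.7% of control cells. MX1 was found in 74.7% and 72.7% against 3.01% and 2.29%, and IFIT1 in 81.3% and 76.1% against 8.29% and 7.53%. Intervals cover counting error only, cells under 3000 UMIs were left out (27 and 25 persister, 11 and 18 control), and no test was made over cells.

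**Figure D3:**
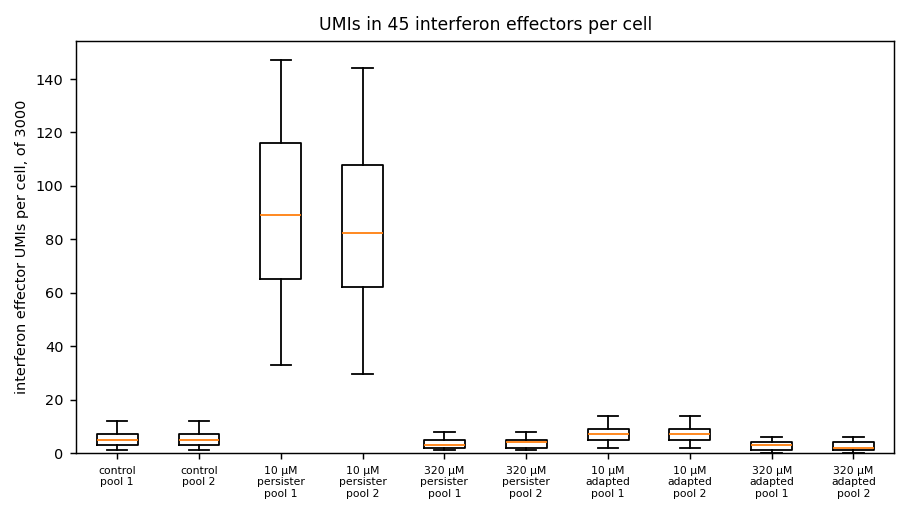
UMIs in the 45 interferon effectors per cell after thinning every cell to 3000 UMIs, by condition and pool; boxes span the quartiles, the bar is the median and whiskers reach the 5th and 95th percentiles. The 10 µM persister boxes (medians 89 and 82.5) lie above the upper whiskers of the other conditions.

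Persister cells on and off the g1 list both carried effectors. Cells on the deposited g1 list had a median of 95 and 87 effector UMIs and cells off it 80 and 73, whereas the 40 mitosis genes took a median of 1 UMI in listed cells of both pools and 12 and 14 in unlisted ones. Several secreted products were found in a minority of cells at this depth. A gene's share of cells also follows its level, so shares are compared between conditions and not between genes. CXCL10 was found in 25.6% and 33.2% of persister cells against 1.16% and 1.17% of control cells, and its top 5 cells held 30.4% and 25.8% of its persister UMIs. SAA1, an acute phase protein, was found in 18.3% and 18.5% of cells, IL6 in 23.8% and 24.4%, and HP, haptoglobin, in 10.99% and 5.04%, with 56.9% and 85.7% of the HP UMIs in 5 cells of each pool. The values of HP and of S100A8 and S100A9 therefore rest on few cells.

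**Figure D4:**
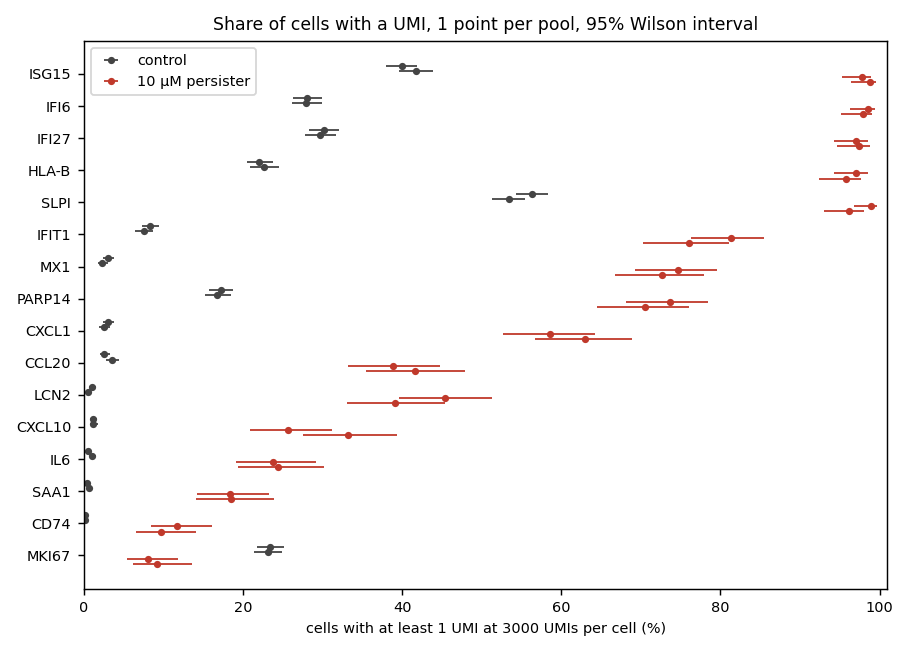
Share of cells with at least 1 UMI of 16 genes at 3000 UMIs per cell (percent, horizontal axis) in control and 10 µM persister cells, with 1 point per pool and its 95% Wilson interval. ISG15, IFI6, IFI27 and HLA-B reach over 95% of persister cells in both pools, whereas CXCL10, SAA1, IL6 and CD74 stay under 35%. A gene's share also follows its level at this depth.

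NF-kB genes and the proteins that hold NF-kB back rose together, 18 of 22 tested with 0 lower and a median log2 change of 1.21. Among the inhibitors NFKBIA, which keeps NF-kB in the cytoplasm, rose from 191 and 200.2 to 960.4 and 879 CPM (log2 2.23 ± 0.06), and TNFAIP3 (A20), a ubiquitin-editing brake, from 5.75 and 6.49 to 57.0 and 59.3 (log2 3.25 ± 0.12). RELB, a subunit of the alternative pathway, rose from 13.6 and 15.6 to 73.2 and 77.6 CPM (log2 2.37), and BIRC3, an inhibitor of apoptosis at the TNF receptor, from 1.15 and 0.933 to 49.8 and 64.2 (log2 5.77 ± 0.20). The subunit REL stood at 57.1 and 57.0 against 61.4 and 60.8 CPM and the kinase CHUK at 10.3 and 9.42 against 11.1 and 9.37, and neither was called.

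Chemokines, the secreted attractants of leukocytes, were among the furthest moved. Of 21 listed, 15 were tested and 14 rose with 0 lower and a median log2 change of 5.22 (4.46 with genes at the control floor set to their lower bound). For 2 of these 15 the filter was passed only through persister sums. CXCL1, a neutrophil attractant, rose from 9.51 and 9.25 to 1072 and 1061 CPM (log2 6.83 ± 0.07, adjusted p = 3.81e-32), and CXCL8, another, from 5.88 and 7.08 to 599 and 612 (log2 6.54 ± 0.08). CCL20, which draws cells bearing CCR6, rose from 11.5 and 14.5 to 986 and 1179 CPM (log2 6.38 ± 0.18, adjusted p = 5.95e-07). CXCL10, an attractant of T cells that interferon induces, rose from 3.40 and 3.56 to 719.5 and 851 CPM (log2 7.81 ± 0.12, adjusted p = 5.29e-15). CCL2, a monocyte attractant, stood at 45.3 and 46.5 against 266 and 375 CPM (log2 2.81 ± 0.16). CXCL9 and CXCL6 had no UMI in any of the 4 sums.

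Cytokines followed, with 21 of 24 tested (of 30 listed) higher and 0 lower, a median log2 change of 3.72 (3.49 at the bounds), and 6 that passed the filter only through persister sums. IL6, which drives the acute phase response, rose from 1.99 and 2.76 to 133 and 147 CPM (log2 5.87 ± 0.14). TNF, itself an activator of NF-kB, rose from 8.31 and 7.30 to 77.1 and 87.7 CPM (log2 3.40 ± 0.12), and its relatives TNFSF10 (TRAIL), a death ligand, from 6.77 and 6.96 to 99.3 and 128 (log2 4.05) and LTB, lymphotoxin beta, from 29.5 and 22.2 to 381 and 369 (log2 3.86 ± 0.16). IL32, an inducer of other cytokines, rose from 26.6 and 27.02 to 441 and 528 CPM (log2 4.18 ± 0.09), and CSF1, the growth factor of macrophages, from 4.11 and 4.45 to 91.8 and 97.3 (log2 4.46). TGFB1 rose from 6.81 and 5.43 to 27.6 and 24.3 CPM (log2 2.08).

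All 13 tested acute phase and antimicrobial secreted proteins rose (of 22 listed), with a median log2 change of 6.11, and 4 of them passed the filter only through persister sums. SLPI, a secreted inhibitor of neutrophil elastase, rose from 362 and 351 to 11698 and 9531 CPM (log2 4.89 ± 0.11, adjusted p = 1.02e-07). It was found in 98.9% and 96.2% of persister cells against 56.3% and 53.4% of control cells. PI3 (elafin), an inhibitor of the same enzyme, rose from 9.91 and 10.9 to 811 and 637 CPM (log2 6.11 ± 0.16). LCN2, which binds bacterial iron carriers, rose from 2.96 and 1.95 to 516 and 398 CPM (log2 7.54 ± 0.24, adjusted p = 5.3e-07). SAA1 rose from 1.19 and 1.27 to 167 in both pools (log2 7.07 ± 0.13), although reads may be shared with its near copy SAA2. Ceruloplasmin (CP), a copper-carrying ferroxidase, rose from 39.8 and 36.2 to 297 and 232 CPM (log2 2.80).

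Complement genes rose in 11 of 13 tested and fell in 1, with a median log2 change of 1.97. The central component C3 rose from 1.33 and 1.10 to 126 and 135 CPM (log2 6.74 ± 0.13), and the protease C1S from 2.52 and 2.38 to 66.3 and 60.5 (log2 4.69). The fluid-phase inhibitor SERPING1 also rose, from 12.3 and 12.4 to 59.1 and 55.7 CPM (log2 2.21 ± 0.10), whereas CD46, which protects cells from complement, fell from 113 and 99.4 to 74.5 and 75.2 (log2 -0.50 ± 0.07). CFI, the protease for which CD46 is a cofactor, was 11.6 and 13.3 against 9.80 and 12.3 CPM and was not called (adjusted p = 0.42).

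MHC class I presentation rose as a whole pathway, with 21 of 22 genes higher, 0 lower and a median log2 change of 2.30, and none of the 22 depended on persister sums to pass the filter. The heavy chains included HLA-B (85.3 and 90.5 against 2350.2 and 2258 CPM, log2 4.71) and HLA-C (74.4 and 66.8 against 1877 and 1625, log2 4.63). These genes are highly alike and variable between people, so the split of reads among them is uncertain. Their shared light chain B2M rose from 1094 and 1109 to 5297 and 5024 CPM (log2 2.23 ± 0.04). HLA-E, a ligand of natural killer receptors, rose from 24.9 and 27.3 to 441 and 428 CPM (log2 4.06).

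Peptide supply moved with the heavy chains. TAP1, a subunit of the peptide transporter, rose from 3.40 and 4.28 to 181 and 168 CPM (log2 5.5003 ± 0.12), and PSMB9, an immunoproteasome subunit, from 14.9 and 15.9 to 427 and 375 (log2 4.70 ± 0.07). PSMB8, another subunit, rose from 24.7 and 24.98 to 212 and 183 (log2 2.99), and NLRC5, the factor that drives class I genes, from 0.442 and 0.509 to 6.96 and 7.69 (log2 3.92 ± 0.35). General chaperones of the same step changed little: CALR stood at 516 and 509 against 631 and 586 CPM (log2 0.25 ± 0.05) and CANX at 240.0 and 227 against 258 and 245 (not called, adjusted p = 0.0803).

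Class II genes were low and rose in 7 of 8 tested (of 15 listed), with 3 that passed the filter only through persister sums. CD74, the invariant chain, rose from 0.354 and 0.297 to 62.4 and 47.1 CPM (log2 7.35 ± 0.22) and was found in 11.7% and 9.66% of persister cells against 0.124% and 0.0936% of control cells. HLA-DRA stood at 0 and 0.0424 against 1.81 and 1.68 CPM (1 UMI in both control sums together), and CIITA, the factor that drives class II genes, had 4 and 2 UMIs in persister sums and 5 and 3 in control sums. Of 16 tested checkpoint and surface ligands 15 rose and 0 fell (median 2.01). For 3 of the 16 the filter was passed only through persister sums, and of the other 13, 12 rose (median 1.21). ICAM1, an adhesion ligand of leukocytes, rose from 4.20 and 3.69 to 137 and 135 CPM (log2 5.10 ± 0.11), and CD40 from 24.9 and 25.2 to 202 and 194 (log2 2.98). CD274 (PD-L1) rose from 1.55 and 1.31 to 9.28 and 8.65 CPM (log2 2.64 ± 0.29) and was found in 4.03% and 3.78% of persister cells, and CD47, a signal against engulfment, rose from 310.4 and 330.2 to 508 and 533 (log2 0.70 ± 0.05). IDO1, which degrades tryptophan, went from 0.177 and 0.0848 to 21.1 and 24.5 CPM (log2 7.36 ± 0.33).

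**Figure D5:**
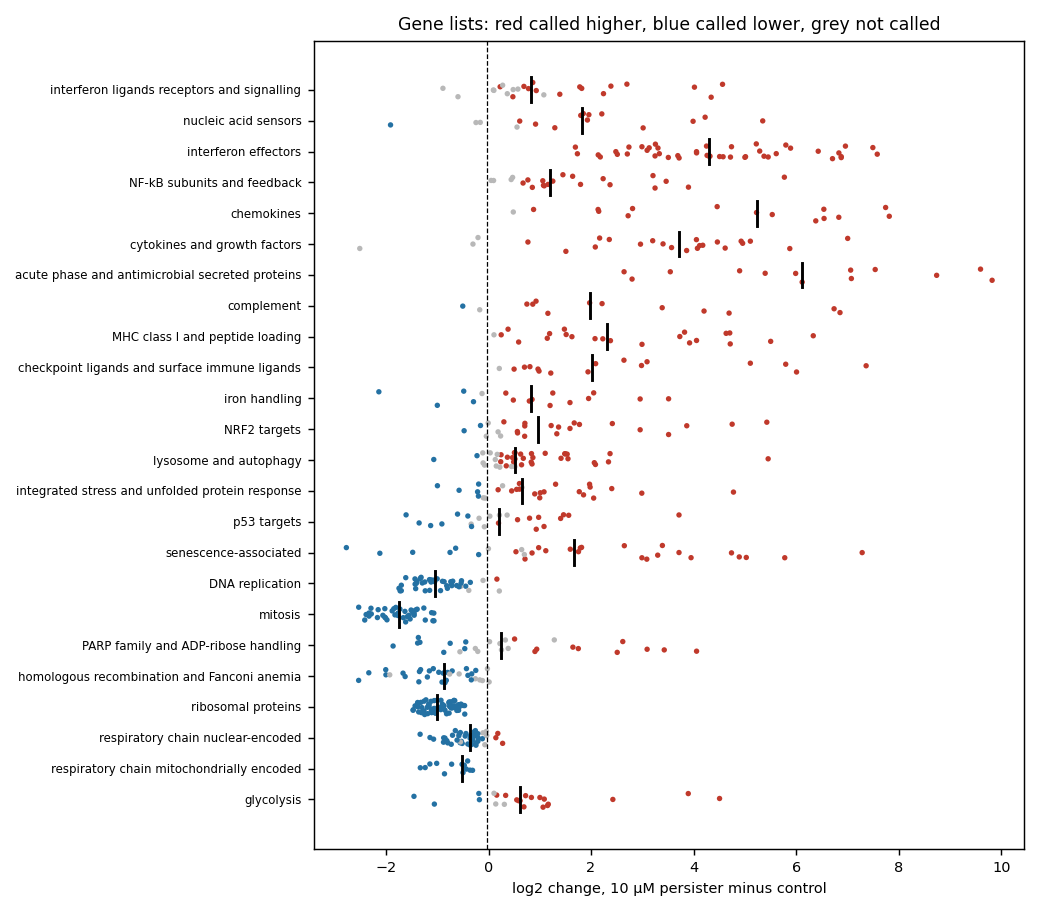
Log2 change (10 µM persister minus control) of every tested member of 24 gene lists, with 1 point per gene, called genes in colour, a bar at the list's median and a dashed line at the median of all tested genes. All points of the interferon effectors, chemokines, acute phase and MHC class I genes lie to the right of 0, and all points of mitosis, ribosomal protein and mitochondrially encoded genes lie to the left.

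Iron storage rose strongly. FTH1, the ferritin heavy chain that oxidizes and stores iron, rose from 5086 and 5044 to 39598 and 38989.9 CPM (log2 2.96 ± 0.03, adjusted p = 8.7e-33), and FTL, the light chain, from 4041 and 4092 to 12248 and 12202 (log2 1.59). Both have many processed pseudogenes, so some of their reads may come from or be lost to copies. Of 16 tested iron genes 11 rose and 4 fell (median 0.82). HMOX1, which frees iron from heme, rose from 7.43 and 8.44 to 111 and 71.4 CPM (log2 3.51 ± 0.24). The falls included ACO1 (IRP1), which represses ferritin translation when iron is scarce, from 62.3 and 56.1 to 13.2 and 13.7 CPM (log2 -2.14 ± 0.12). NCOA4, the receptor that delivers ferritin to lysosomes, was 41.7 and 40.3 against 37.7 and 37.5 CPM and was not called.

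Targets of NRF2, the factor of the oxidant response, rose in 18 of 24 tested and fell in 2 (median 0.96, FTH1, FTL and HMOX1 counted here too). NQO1, a quinone reductase, rose from 90.03 and 91.9 to 244 and 225 CPM (log2 1.37), and GCLM, a subunit of the enzyme that starts glutathione synthesis, from 38.6 and 42.6 to 94.4 and 109.8 (log2 1.33). The catalytic subunit GCLC was not called (7.43 and 8.70 against 6.45 and 9.13 CPM). AKR1B1, an aldose reductase, rose from 189.6 and 189 to 1033 and 984 CPM (log2 2.41 ± 0.05). SOD2, the mitochondrial superoxide dismutase and an NF-kB target, rose from 26.4 and 28.2 to 458 and 404 CPM (log2 3.98 ± 0.07), whereas cytosolic SOD1 was 460.0 and 462 against 481 and 475 (adjusted p = 0.296). Catalase (CAT, log2 -0.78) and the mitochondrial peroxiredoxin PRDX3 (199 and 197 against 106 and 104 CPM, log2 -0.92) fell, and 5 of 12 enzymes of superoxide and peroxide rose and 5 fell.

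Lysosome and autophagy genes rose in 27 of 39 and fell in 2 (median 0.52). SQSTM1 (p62), an autophagy receptor, rose from 275 and 282 to 1445 and 1374 CPM (log2 2.34 ± 0.04), and the protease CTSD from 84.8 and 87.9 to 271 and 235 (log2 1.55). Stress genes split. Of 27 genes of the integrated stress and unfolded protein responses, 18 rose and 5 fell (median 0.65). DDIT3 (CHOP), a factor that promotes death under lasting stress, rose from 20.2 and 23.6 to 129 and 103 CPM (log2 2.40 ± 0.12), and NUPR1 from 4.51 and 3.90 to 112 and 118 (log2 4.77 ± 0.11). ATF3, another stress factor, fell from 134 and 128 to 74.0 and 57.4 CPM (log2 -0.996 ± 0.08), and PHGDH, the first enzyme of serine synthesis, from 149.6 and 159 to 103 and 104 (log2 -0.57).

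Genes of cell division fell. All 40 tested mitosis genes were lower, against 29.3% of all genes, with log2 changes of -2.53 to -1.06 and a median of -1.75. MKI67, a marker of cycling cells, went from 155 in both control pools to 31.7 and 38.0 CPM (log2 -2.15 ± 0.08), TOP2A, which untangles DNA, from 239 and 241 to 58.5 and 63.2 (log2 -1.98), and CENPF, a kinetochore protein, from 646 and 651 to 146 and 143 (log2 -2.17). At 3000 UMIs per cell MKI67 was found in 8.06% and 9.24% of persister cells against 23.4% and 23.1% of control cells. Of 43 DNA replication genes 38 fell and 1 rose (median -1.05). MCM2, part of the replicative helicase, fell from 29.1 and 30.1 to 9.54 and 8.41 CPM (log2 -1.72), and CLSPN, a replication checkpoint adaptor, from 156 in both pools to 57.8 and 57.7 (log2 -1.43). Within cells on the g1 list 31 of 40 mitosis genes (median -1.09) and 22 of 43 replication genes (median -0.70) were still lower and 4 replication genes were higher.

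Cell cycle regulators moved both ways, 6 of 28 higher and 12 lower (median -0.35, and -0.19 without persister pool 1). CCND1 (cyclin D1) rose from 224 and 223 to 320.1 and 341 CPM (log2 0.57 ± 0.05) and the CDK4 and CDK6 inhibitor CDKN2B from 12.2 and 11.1 to 35.6 and 44.9 (log2 1.79 ± 0.12). CCNB1 (cyclin B1) fell from 154 and 161 to 49.0 and 45.2 CPM (log2 -1.74) and its kinase CDK1 from 108 and 115 to 40.0 and 40.8 (log2 -1.46). The p53 target list was split as well, with 10 of 23 higher and 7 lower (median 0.19). CDKN1A (p21) rose from 14.0 and 15.7 to 29.7 and 28.8 CPM (log2 0.98 ± 0.12) and GDF15, a stress hormone, from 4.25 and 4.67 to 70.9 and 46.9 (log2 3.71 ± 0.18). MDM2, the ligase that degrades p53, fell from 30.9 and 29.9 to 16.8 and 15.6 CPM (log2 -0.91 ± 0.14), and BTG2 from 115 and 121 to 37.4 and 39.9 (log2 -1.61).

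PARP1 and PARP2, the drug's targets, were lower, while some other PARP family members rose. Of 27 tested genes of ADP-ribose handling 10 rose and 8 fell, near the shares over all genes (median 0.25, and 0.13 without persister pool 1). PARP1 fell from 323 and 314 to 176 and 172 CPM (log2 -0.87 ± 0.05, adjusted p = 1.58e-15). Its partner HPF1, which directs PARP1 to serine residues, fell from 48.7 and 50.4 to 16.8 and 21.1 CPM (log2 -1.38 ± 0.10), and the break repair ligase LIG3 from 10.1 and 8.95 to 2.58 and 2.64 (log2 -1.86). PARP2 stood at 28.1 and 27.8 against 20.4 and 20.2 CPM (log2 -0.46 ± 0.11), a call that was lost in cells on the g1 list (log2 0.01) and in sums thinned to equal totals.

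The PARP genes that rose are known interferon targets in part. PARP14 rose from 66.4 and 63.0 to 554 and 549.7 CPM (log2 3.09 ± 0.06), PARP9, which works with the ligase DTX3L, from 9.24 and 9.54 to 151 and 162 (log2 4.06 ± 0.09), DTX3L from 11.5 and 11.3 to 102 and 98.5 (log2 3.13), PARP10 from 12.3 and 13.7 to 87.4 and 72.6 (log2 2.62) and PARP12 from 8.71 and 8.61 to 45.1 and 53.3 (log2 2.51). PARP14 was found in 73.6% and 70.6% of persister cells against 17.2% and 16.8% of control cells. NAMPT, which makes the NAD that PARP enzymes consume, rose from 42.4 and 40.7 to 139.5 and 140.1 CPM (log2 1.75 ± 0.07). PARP9, PARP14 and DTX3L are also counted among the interferon effectors.

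Homologous recombination and Fanconi anemia genes fell in 24 of 32 and rose in 0 (median -0.87), and within the g1 list in 15 of 30. FANCD2, the core of the crosslink pathway, fell from 16.8 and 16.2 to 4.90 and 5.77 CPM (log2 -1.63 ± 0.18), MRE11, which starts resection of break ends, from 65.7 and 59.4 to 25.5 and 23.3 (log2 -1.36) and XRCC2, a recombination protein, from 24.3 and 22.7 to 6.45 and 5.29 (log2 -2.004). BRCA1 fell from 43.3 and 39.0 to 25.5 and 21.9 CPM (log2 -0.80 ± 0.10), a call that was lost in cells on the g1 list. BRCA2, mutated in this line, stood at 18.4 and 17.5 against 15.99 and 10.8 CPM (log2 -0.43 ± 0.15, adjusted p = 0.0148), but the call was lost without control pool 1 (-0.39) or persister pool 2 (-0.17), and the change was 0.21 in cells on the g1 list. The end-joining and PARP inhibitor response list fell in 19 of 27 and rose in 1 (median -0.51). PRKDC, the kinase of end joining, fell from 755 and 713 to 197 and 187 CPM (log2 -1.94 ± 0.08), XRCC5 (Ku80) from 507 and 477 to 242 and 218 (log2 -1.10), HLTF, a fork remodeller, from 223 and 218 to 83.0 and 83.4 (log2 -1.40) and TP53BP1, which shields break ends, from 55.6 and 52.1 to 43.1 and 36.8 (log2 -0.43 ± 0.09). SLFN11, whose loss is a known route of resistance, had 0 UMIs in all 4 sums. It was among the 27 tested through sums of other conditions, so its change from control is not defined.

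Of 10 tested drug efflux transporters 4 rose and 2 fell (median 0.49), too few to set apart from the 27.3% and 29.3% over all genes. ABCC3, an exporter of conjugates, rose from 2.74 and 2.21 to 37.4 and 34.8 CPM (log2 3.86 ± 0.16), and ABCC5 fell from 20.5 and 19.8 to 8.25 and 10.3 (log2 -1.11). ABCB1, the transporter known to export olaparib, had 0 UMIs in all 4 sums, and ABCG2 had 4 and 5 UMIs in control and 0 and 2 in persister sums.

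Genes linked to senescence rose in 21 of 30 tested and fell in 6 (median 1.67). Its secreted factors included IGFBP3 (3.05 and 3.48 against 106 and 88.7 CPM, log2 4.89 ± 0.12) and IGFBP6 (5.17 and 5.30 against 159 and 122, log2 4.74), which bind insulin-like growth factors, and the protease PLAU (19.1 and 20.9 against 138 and 113, log2 2.65). LMNB1, a lamin that senescent cells are known to lose, fell from 28.7 and 34.2 to 3.61 and 5.53 CPM (log2 -2.77 ± 0.21), and HMGB1 from 1832 and 1839.5 to 688 and 630.5 (log2 -1.48).

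Death receptors, caspases and BCL2 proteins rose in 19 of 29 and fell in 3 (median 0.86). Without persister pool 2, 16 rose and 1 fell, with a median of 0.45. The inflammatory caspases CASP1 (2.74 and 2.46 against 44.1 and 41.1 CPM, log2 4.03 ± 0.15) and CASP4 (16.4 and 16.9 against 135 and 112, log2 2.89) rose furthest with MLKL, the executor of necroptosis (0.486 and 0.594 against 6.45 and 9.13, log2 3.83 ± 0.35). BID, a link from death receptors to mitochondria, rose from 40.3 and 38.9 to 151 and 144 CPM (log2 1.90), and its downstream pore protein BAK1 from 13.4 and 15.1 to 48.7 and 46.4 (log2 1.74). CFLAR, which blocks caspase-8, rose from 26.4 and 26.2 to 56.5 and 50.5 CPM (log2 1.02). The survival protein BCL2L1 was 77.6 and 82.6 against 69.6 and 81.5 and was not called (adjusted p = 0.384).

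All 62 tested ribosomal protein genes fell, with a median log2 change of -0.995 and a range of -1.47 to -0.46. A larger set of 86 ribosomal protein genes, counted by symbol, took 25.1% and 25.2% of control UMIs and 13.7% and 14.6% of persister UMIs. RPLP0 fell from 2461 and 2430.4 to 869 and 895 CPM (log2 -1.47 ± 0.04), RPL3 from 3201 and 3087 to 1168 and 1108 (log2 -1.47) and RPS6 from 5658 and 5645 to 2108 and 2241 (log2 -1.38). Per cell, the 62 genes took a median of 347 and 376.5 of 3000 UMIs against 675 and 684 in control. Translation factors and nucleolar genes fell in 22 of 30 and rose in 4: EEF1A1, which brings transfer RNA to the ribosome, fell from 9847 and 9689 to 3979 and 3972 CPM (log2 -1.30), NCL (nucleolin) from 1333 and 1269 to 549 and 494 (log2 -1.32), and MYC, a driver of ribosome production, from 138 and 143 to 85.9 and 93.0 (log2 -0.65). EIF4EBP1, a repressor of cap-dependent translation, rose from 155 and 154 to 234 and 278 CPM (log2 0.73). RPL26 was an exception in firmness, with 1005 and 1226 against 606 and 790.5 CPM and an adjusted p of 0.0419, and its call was lost when any 1 of the 4 sums was left out.

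Respiratory chain genes fell by less. The 13 mitochondrially encoded genes all fell (median -0.52), such as MT-CYB of complex III from 14185 and 13614 to 6449 and 6136 CPM (log2 -1.14 ± 0.03). Of 48 nuclear-encoded subunits 40 fell and 3 rose (median -0.36), and with library totals alone 34 fell (median -0.23). ATP5F1A, a subunit of ATP synthase, fell from 183 and 180.3 to 108 and 90.8 CPM (log2 -0.87 ± 0.06). Glycolysis moved the other way, with 16 of 23 higher and 4 lower (median 0.62). The glucose importer SLC2A1 rose from 90.4 and 100.1 to 215 and 212 CPM (log2 1.16), LDHA, which makes lactate, from 383 and 392.4 to 910.1 and 738 (log2 1.09 ± 0.08), and the lactate exporter SLC16A3 from 1.33 and 1.44 to 36.1 and 27.4 (log2 4.50 ± 0.18). LDHB, the isoform that favours pyruvate, fell from 803 and 778 to 298 and 279.7 CPM (log2 -1.45 ± 0.04).

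Cholesterol synthesis fell in 12 of 22 and rose in 2 (median -0.24), led by the sterol reductase TM7SF2 (162 and 168 against 32.8 and 26.4 CPM, log2 -2.48 ± 0.08). Of 14 tested genes of tryptophan and NAD metabolism 8 rose and 2 fell (median 0.68, and 0.44 without persister pool 2). For 2 of the 14 the filter was passed only through persister sums, and of the other 12, 6 rose and 2 fell (median 0.44). NNMT, which methylates nicotinamide, rose from 19.9 and 22.8 to 617 and 589 CPM (log2 4.82 ± 0.06), and CD38, an enzyme that degrades NAD, stood at 0 and 0.0848 CPM (2 UMIs in both control sums together) against 8.77 and 5.05.

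Of 18 tested genes of the ovarian serous list 6 rose and 7 fell, near the shares over all genes. WT1, a factor of the serous lineage, fell from 23.97 and 25.8 to 12.1 and 7.21 CPM (log2 -1.38 ± 0.16), SOX17 from 289 and 360.0 to 93.6 and 103 (log2 -1.72 ± 0.21) and MECOM from 61.8 and 55.4 to 22.4 and 22.8 (log2 -1.37). PAX8 was not called (values above, log2 -0.10, adjusted p = 0.2), but it was lower without persister pool 1 (log2 -0.21, adjusted p = 0.0136) and in cells on the g1 list. WFDC2 (HE4), a serum marker of ovarian cancer, rose from 270.2 and 264 to 2969 and 2303 CPM (log2 3.30 ± 0.12), and MUC16 (CA125) from 0.486 and 0.424 to 7.48 and 4.81 (log2 3.72 ± 0.41). PEG10, an imprinted gene, fell from 265 and 259.8 to 43.6 and 39.6 CPM (log2 -2.66 ± 0.07).

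Keratins, mucins and junction genes rose in 14 of 23 and fell in 6 (median 2.096, and 1.302 without persister pool 2). For 3 of the 23 the filter was passed only through persister sums, and of the other 20, 11 rose and 6 fell (median 1.264). The summed level of the list was 4288 and 4389 CPM in control and lower, at 3935 and 3290, in persister cells. The 3 keratin, mucin and junction genes named next all rose. KRT7 rose from 2.92 and 2.76 to 64.2 and 82.2 CPM (log2 4.69), MUC1 from 2.03 and 2.38 to 56.5 and 52.6 (log2 4.62 ± 0.15) and CLDN4, a tight junction claudin, from 17.9 and 18.9 to 109.6 and 106 (log2 2.55). Matrix and mesenchymal genes rose in 18 of 32 and fell in 6 (median 1.11), or 3 without persister pool 1. FN1 (fibronectin) rose from 14.1 and 14.3 to 716 and 812 CPM (log2 5.75 ± 0.07), SPP1 (osteopontin) from 142 and 149.99 to 1375 and 1257 (log2 3.17) and its receptor CD44 from 16.6 in both pools to 83.6 and 91.1 (log2 2.39). VIM (vimentin) rose from 258 and 279 to 857 and 1010.3 CPM (log2 1.80 ± 0.07), while TWIST1, a factor that drives a mesenchymal state, fell from 14.2 and 14.1 to 2.84 and 6.49 (log2 -1.58 ± 0.24, and -2.32 without persister pool 2). Immediate early genes split, 8 of 22 higher and 10 lower, with FOS down from 859 and 807 to 171 and 135 CPM (log2 -2.45 ± 0.08) and EGR1 from 375 and 385 to 141 and 125 (log2 -1.52), and FOSL1 up from 2.43 and 2.97 to 18.8 and 16.3 (log2 2.69).

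The higher dose was tested directly. Between 10 µM and 320 µM persister cells 3257 genes were higher at 10 µM (24.4%) and 3367 lower (25.3%). All 45 interferon effectors were higher at 10 µM, with a median log2 difference of 4.68, and so were 21 of 22 MHC class I genes (median 2.996) and 13 of 15 tested chemokines (median 4.90). ISG15 stood at 153 and 144 CPM at 320 µM, a log2 difference of 5.29 (adjusted p = 1.48e-34), MX1 at 3.67 and 3.49 (7.23), CXCL1 at 9.17 and 7.92 (6.96) and IL6 at 2.98 and 3.38 (5.46). All 62 ribosomal protein genes were lower at 10 µM than at 320 µM (median -0.94) and so were all 13 mitochondrially encoded genes (median -0.82). Acute phase genes were higher at 10 µM in 11 of 13 tested and lower in 1 (median 7.27). Cytokines were higher in 21 of 24 and lower in 0 (median 4.42), and MHC class II genes in 8 of 8 (median 5.58). These 3 lists include the genes that passed the filter only through 10 µM persister sums. Some other groups differed less between the doses. Mitosis genes were lower at 10 µM in 19 of 40 and higher in 3 (median -0.31), and MKI67 stood at 47.3 and 47.7 CPM at 320 µM (-0.44). NUPR1 stood at 84.6 and 79.3 CPM at 320 µM (0.49) and GDF15 was higher there, at 94.9 and 85.9 CPM (-0.63). FTH1 stood at 19689 and 18647 CPM at 320 µM (1.04, adjusted p = 5.11e-22). ASNS, asparagine synthetase and a target of ATF4, was higher at 320 µM, at 137 and 133 CPM against 27.9 and 42.0 at 10 µM (-1.94). 

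The population adapted to the same 10 µM was set beside the 9-day cells in the same fit, with 3904 genes higher in persister cells (29.3%) and 4190 lower (31.4%). Of the 45 interferon effectors 44 were higher in persister cells and 1, IFITM2, was lower (median 4.52), with ISG15 at 165 and 168 CPM in adapted cells (5.12, adjusted p = 1.14e-34) and IFITM2 at 481 and 509 (-0.23, adjusted p = 0.000109). All 40 mitosis genes (median -1.06) and all 62 ribosomal protein genes (median -1.37) were lower in persister cells. Of 32 matrix and mesenchymal genes 12 were higher in persister cells and 12 lower (median 0.06). FN1 stood at 645 and 686 CPM in adapted cells (0.20), whereas VCAM1, an adhesion protein at 2.84 and 1.68 CPM in persister cells, reached 109 and 102 (-5.55), and COL1A1 reached 93.6 and 90.8 (-5.21). IGFBP6 was 126 and 129.9 CPM in adapted cells and did not pass the test against persister cells (0.13, adjusted p = 0.16). PARP1 stood at 167 and 164 CPM in adapted cells, and its difference from persister cells did not pass the test (0.07, adjusted p = 0.223). These comparisons share the persister sums with the one against control.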

How the data were processed

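UMI counts per gene and cell were deposited by the authors, made with Cell Ranger 3.1 and Seurat on hg38 (GRCh38) per the submitters' processing notes, and are whole counts without normalization. The deposited libraries are droplet pools that mix all conditions, so each cell's condition and pool were read from its name. Counts were summed per condition and pool (10 sums), and 13330 genes that passed edgeR's expression filter (at least 0.628 CPM in 2 or more sums) were fitted with edgeR 4.0.16 (R 4.3.3): TMM scaling (also used for summed list levels and floors), robust quasi-likelihood test, Benjamini-Hochberg adjustment, threshold 0.05. Differences from 320 µM persister and 10 µM adapted cells came from the same fit. The fit was tested on simulated data. Of the tested genes, 232 passed the filter only through persister sums. Beside those stated above, 1 each was in the NF-kB, complement, iron, NRF2, lysosome, ADP-ribose, senescence, ovarian serous and epithelial lists. The leukocyte and mesothelial lists held 2 each, as given above.

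Same-numbered pools deviated together (correlation 0.401 between persister and control over 2730 genes, 0.338 to 0.612 over all pairs of conditions), and the number names the droplet pool. Pools differed by more than sampling noise, with a chi-square per degree of freedom of 3.24 in control and 3.37 in persister cells. Cells were thinned to 3000 UMIs for shares of cells. Promoter windows are RefSeq's on GRCh38.p14. The 42 gene lists and the comparison itself were chosen with earlier results of these data known. Named genes are the 15 largest rises and falls among called genes of at least 50 CPM whose sums do not overlap, the 5 most abundant genes of each condition, and list members described for their role. DESeq2 1.42.0 was an alternative.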

Additional observations from a re-analysis of the deposited data

How the results depend on the processing

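Counts of genes called against control, 320 µM persister and 10 µM adapted cells stayed within 1.5 times under the 13 alternatives. Leaving out 1 sum gave 3051 to 3383 higher and 3237 to 3640 lower genes against control. With the pool number as a replicate block 3771 genes were higher and 4040 lower. Of 546 list counts in each list's larger direction, 536 stayed within 1.5 times. The exceptions were MHC class II (3 higher with sums thinned to equal totals, 4 in cells on the g1 list), and, in cells on the g1 list, cyclins and CDKs (6 lower), DNA replication (22 lower) and homologous recombination (15 lower). Of fibroblast markers, 2 of which rose, 1 was higher with only the compared sums, 1 to 2 when a sum was left out, 1 with thinned sums and 0 in cells on the g1 list. Counts in a list's smaller direction, of at most 6 genes where they moved, moved by over 1.5 times in 55 of 546 comparisons. Among them, leaving out 1 sum gave 0 for the 1 higher DNA replication gene (any sum), 1 for 3 higher respiratory chain genes (control pool 2) and 1 for 2 higher cholesterol genes (either control pool), and library totals alone gave 2 for 5 lower stress genes and 2 for 4 lower glycolysis genes. List medians near 0 turned: superoxide and peroxide enzymes to 0.053 with library totals alone and 0.10 with thinned sums, immediate early genes to 0.059 with library totals alone and from -0.081 to 0.0024 when a sum was left out, and the ovarian serous list to 0.11 with thinned sums. In cells on the g1 list BRCA2 turned to 0.21, PARP2 to 0.011 and COL1A1 to -0.24 against control. Fewer cells enter that setting and fewer UMIs the thinned one; the cause of each change was not tested. Of 223 named genes, 208 kept their call in every alternative that tested them. Shares of cells with a gene depended on the depth of thinning. With 2000 UMIs per cell in place of 3000, 97 shares moved and 75 stayed the same. Without thinning 139 moved and 33 stayed the same. The quoted shares therefore hold for 3000 UMIs per cell. With 2 pools a side that each mix all conditions, the spread between separate cultures was not measured.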
